A study of Mus musculus with 6 samples.

Results

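The genes described here encode the constitutive proteasome, the barrel-shaped protease that removes ubiquitin-tagged proteins, together with its activators and assembly factors. They were taken by name from the expression table as every gene called Psm followed by a letter from a to g and a number, leaving out Psmb8, Psmb9 and Psmb10, the catalytic subunits of the immunoproteasome. This gave 46 of 15954 genes, all of them annotated as protein-coding. One of them, Psmc3ip, carries the name of a proteasome subunit but encodes a meiotic recombination factor that binds one, and it is counted among the 46 but described on its own. Another 5 annotated genes with matching names, Psmb11 and 4 pseudogenes, were not analysed here.

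The libraries were made from microglia isolated from brains of LACTB ED mice, which are homozygous for an enzymatically dead LACTB (S162I), and of LACTB WT mice, at 3 months of age. LACTB itself lies in mitochondria and descends from bacterial penicillin-binding proteins, and the ED mice came from a conditional knock-in made in C57BL/6J embryonic stem cells. How the conditional allele was activated was not given in the sources used. The paper reports higher succinylcarnitine in liver, brain, isolated microglia and isolated astrocytes of ED mice than of WT mice. Cells were collected with beads against CD11b, a surface protein that monocytes and other macrophages share with microglia. There were 3 libraries per genotype, 1 mouse each, named here by genotype and mouse number. In bulk RNA, a lower level in each cell and fewer cells of a type cannot be told apart.

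The core particle of the proteasome, called 20S, is a stack of rings. The outer rings are built of alpha subunits, which form a gate, and the inner rings of beta subunits, of which Psmb5, Psmb6 and Psmb7 carry the chymotrypsin-like, caspase-like and trypsin-like sites. The 19S regulatory particle sits on the gate, where its ATPases (Psmc genes) unfold the substrate and its other subunits (most Psmd genes) bind ubiquitin chains and remove them. Other caps open the core without ubiquitin (Psme genes), and dedicated chaperones guide assembly. In immune cells interferon replaces the catalytic subunits by those of the immunoproteasome, and when proteasome activity is short, the transcription factor encoded by Nfe2l1 raises the subunit genes together.

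Values are a normalized signal that looks like read counts over 1 size factor per library. The depth inferred from the step between neighbouring low values came to 23394686 to 27432421 reads in the WT libraries. In the ED libraries the step was not certain, and no depth is given for them. Lactb had 1458, 1524 and 1491 in ED and 1471, 1563 and 1393 in WT mice, which does not check the genotype labels, since an exchange of 1 amino acid need not alter the level. Summed over the 8 microglia markers the values were 849389 to 912420 in ED and 846270 to 1021477 in WT libraries. The 10 neuron markers summed to 2576 to 3344 in ED and 3678 to 3911 in WT libraries, with 9 of 10 lower in ED and no overlap, and their part in the results below was not tested. Sums for astrocytes, oligodendrocytes, endothelium, border macrophages, blood leukocytes and red cells overlapped between the genotypes. Single mice stood out, however. The endothelial sum was 5044 in WT mouse 2 against 2530 to 3256 elsewhere, and the red cell sum 381 against 41.1 to 70.3. Blood leukocyte markers summed to 2324 in ED mouse 3 against 562 to 1495 elsewhere. The part of these sums in the results below was not tested. In the whole table WT mouse 2 stood apart most, being the highest library for 26.2% of genes and the lowest for 27.7%. The comparison used limma, a linear model for each gene with a shared estimate of variance, and Benjamini-Hochberg adjustment, and at an adjusted p of 0.05 it called 0 of 15954 genes (at an unadjusted p under 0.05, 96 were higher and 194 lower).

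No proteasome gene passed the test between ED and WT microglia, and all differences were small. Of the 46 genes, 0 were called, against 0% of all genes, and 0 were at an unadjusted p under 0.05 in limma in either direction, against 0.602% of all genes higher and 1.22% lower in ED. The median log2 fold change of ED over WT, on the scale of log2(value + 1), was -0.025, with 15 genes higher and 31 lower, beside a median of -0.0033 and 51.4% lower over all genes. The log2 fold changes ran between -0.18 for Psmg1 and 0.16 for Psma8. For the 31 subunits of the 20S core and the 19S particle, the 95% intervals lay within -22.0% and 29.1%. All 46 genes together made up 0.269%, 0.258% and 0.236% of the summed values in ED mice 1 to 3 and 0.248%, 0.277% and 0.243% in WT mice 1 to 3. These shares overlapped, with the highest and the second lowest both in WT.

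**Figure D1:**
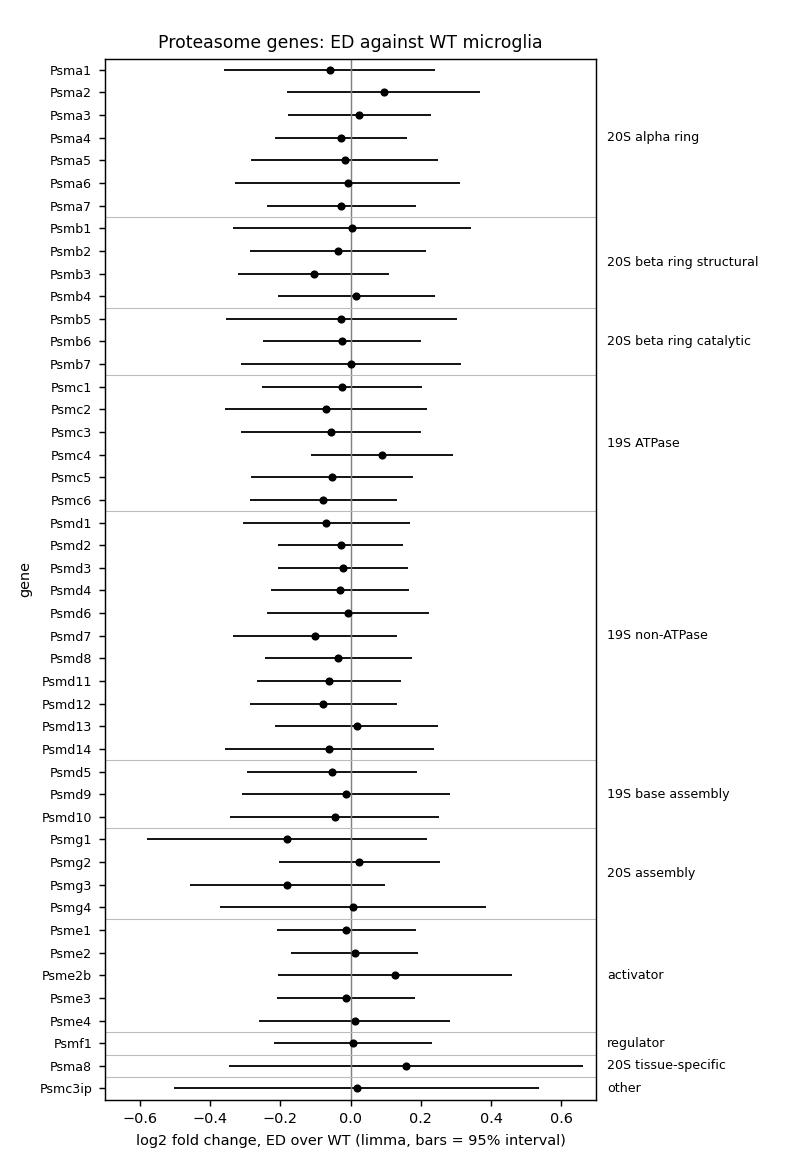
Log2 fold change of ED over WT (horizontal axis, limma, 3 libraries per genotype) for each of the 46 genes, grouped by role, with bars for the 95% interval. Every bar crosses 0, and the bars are widest for the weakly expressed Psma8 and Psmc3ip and for Psmg1.

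The genes of the catalytic subunits of the core differed by little between genotypes. Psmb5 (chr14:54614119-54618022 on GRCm38), which carries the chymotrypsin-like site, had 1192, 1096 and 884 in ED mice 1 to 3 against 1032, 1293 and 914 in WT mice 1 to 3. Its log2 fold change was -0.026 (SE 0.15, 95% interval -0.36 to 0.30). The 2 genotypes overlapped, with the lowest value in an ED mouse and the highest in a WT mouse. Psmb6 (chr11:70525367-70527858), of the caspase-like site, had 1979, 1756 and 1648 in ED and 1757, 2023 and 1697 in WT mice (log2 fold change -0.025, SE 0.10). Psmb7 (chr2:38588036-38644087), of the trypsin-like site, had 1584, 1475 and 1215 in ED and 1423, 1678 and 1184 in WT mice (log2 fold change 0.0018, SE 0.14). In each of these genes WT mouse 2 was the highest of the 6 and ED mouse 1 the second.

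WT mouse 2 was also highest for 3 of the 4 structural beta subunits. Psmb1 had 1713, 1558 and 1186 in ED and 1455, 1715 and 1259 in WT mice, a log2 fold change of 0.0032 (SE 0.15), and had the largest spread of the 4. Psmb3 had the lowest log2 fold change of the core, -0.11 (SE 0.096, 95% interval -0.32 to 0.11), with 1321, 1292 and 1110 in ED against 1262, 1437 and 1302 in WT mice. Its values overlapped, since ED mouse 1 lay above WT mice 1 and 3. Psmb2 and Psmb4 had log2 fold changes of -0.035 and 0.016.

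Of the 7 alpha subunits, 2 were higher and 5 lower in ED and the median of their log2 fold changes was -0.017. Psma6 varied most, with 1969, 1724 and 1456 in ED and 1637, 2072 and 1483 in WT mice (log2 fold change -0.0084, SE 0.14). Psma2 had the highest log2 fold change of the core, 0.094 (SE 0.12, 95% interval -0.18 to 0.37), from 1320, 1362 and 1064 in ED and 1138, 1325 and 1044 in WT mice. Both genotypes held high and low mice. The other alpha subunit genes had values between 773 and 2284.

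In the 19S particle 5 of the 6 ATPase genes were lower in ED, and their log2 fold changes had a median of -0.055. Psmc4 was the exception, at 1561, 1556 and 1402 in ED and 1338, 1551 and 1360 in WT mice (log2 fold change 0.090, SE 0.090, 95% interval -0.11 to 0.29, unadjusted p = 0.341). ED mice 1 and 2 stood just above the highest WT mouse, and ED mouse 3 stood among the WT mice. Psmc2 varied most, with 2329, 2229 and 1881 in ED and 2120, 2698 and 1971 in WT mice (log2 fold change -0.069, SE 0.13).

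Of the 11 non-ATPase subunits 10 were lower in ED, again by little (median -0.035 on the log2 scale). Psmd14, the enzyme that cuts ubiquitin chains off the substrate, varied most and had 819, 782 and 639 in ED and 832, 852 and 656 in WT mice (log2 fold change -0.061, SE 0.13). The genotypes overlapped, each with mouse 3 lowest. The scaffold subunit Psmd2 was at 3871 ± 184 (SD, n = 3) in ED and 3948 ± 220 (SD, n = 3) in WT, and Psmd7 had the lowest log2 fold change of this group at -0.10 (SE 0.10). The ubiquitin receptor Psmd4 was at 1997 ± 113 in ED and 2040 ± 165 in WT (SD, n = 3 each).

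Assembly factors held the only gene with separated genotypes. Psmg3 (chr5:139823592-139826885), a chaperone of the alpha ring, had 256, 239 and 261 in ED mice against 270, 322 and 267 in WT mice. All 3 ED values lay below all 3 WT values, although ED mouse 3 and WT mouse 3 differed by little. The log2 fold change was -0.18 (SE 0.12, 95% interval -0.46 to 0.097), with an unadjusted p of 0.177 and an adjusted p of 1.00 in limma. An exact two-sided permutation test of the log2 values gave p = 0.1, the smallest that 3 against 3 allows. It was the 1 gene of 46, or 2.17%, with all ED values below all WT values, beside 3.42% of all genes, and 0 of 46 lay wholly above, beside 2.32% of all genes.

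Psmg1, the partner of Psmg2 in another chaperone of the alpha ring, had 325, 304 and 219 in ED and 292, 382 and 284 in WT mice (log2 fold change -0.18, SE 0.18, 95% interval -0.58 to 0.22). ED mouse 3 was the lowest and WT mouse 2 the highest, a 1.75-fold range that was the widest of the 46. Psmg2 had the narrowest range, 1.09-fold, with 363, 349 and 335 in ED and 333, 340 and 355 in WT mice. The partner transcripts were thus the ends of this scale. Psmg4 had a log2 fold change of 0.0073 (SE 0.17). The chaperones of the 19S base, Psmd5, Psmd9 and Psmd10, had log2 fold changes of -0.053, -0.013 and -0.046, and Psmd9, with the largest spread, had 681, 572 and 532 in ED and 610, 679 and 515 in WT mice.

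Psme1 and Psme2, which form an interferon-inducible cap, were at 3329 ± 149 and 1678 ± 97.5 in ED and at 3365 ± 323 and 1664 ± 68.7 in WT (SD, n = 3 each), with log2 fold changes of -0.012 (SE 0.088) and 0.011 (SE 0.080). In single mice Psme1 had 3459, 3363 and 3166 in ED and 3165, 3737 and 3193 in WT. The narrow overlapping ranges gave 95% intervals of -0.21 to 0.19 and -0.17 to 0.19. Psme3, a nuclear relative of these genes, had a log2 fold change of -0.014.

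Psme4 and Psme2b departed most in WT mouse 2 from the order of the libraries that the core subunits shared. Psma8 and Psmg2 also lay below their mean over the libraries there. Psme2, Psme2b, Psmf1, Psma8 and Psmc3ip lay above theirs in ED mouse 3. The product of Psme4 caps the core in the nucleus and is known for its part in histone turnover, and the gene had 1589, 1580 and 1479 in ED and 1847, 1298 and 1510 in WT mice. WT mouse 2, the highest for most subunits, was here the lowest, and WT mouse 1 the highest (log2 fold change 0.012, SE 0.12). Psme2b had 458, 432 and 496 in ED and 510, 340 and 435 in WT mice (log2 fold change 0.13, SE 0.15), with the same pair of WT mice at its ends. It is a single-exon gene closely named for Psme2, and reads shared between them may blur its level. Psmf1, which encodes a regulator that binds the core, had 733, 756 and 770 in ED and 741, 840 and 676 in WT mice, with the highest and lowest values both in WT.

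Psma8, the alpha subunit of spermatocyte proteasomes, had low values in microglia, at 81.5, 109 and 100.3 in ED and 111, 88.1 and 65.7 in WT mice (log2 fold change 0.16, SE 0.22, 95% interval -0.35 to 0.66). Its sequence resembles that of Psma7, so part of these reads may belong to that gene. Psmc3ip had 47.8, 59.1 and 60.2 in ED and 50.6, 70.5 and 45.99 in WT mice, a log2 fold change of 0.017 (SE 0.23). Values of both genes overlapped between genotypes, and their intervals were the widest of all.

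Most of the genes, though not all, shared an order of the 6 libraries that crossed the genotypes. For 35 of the 46 genes WT mouse 2 was the highest of the 6 libraries, against 26.2% of all genes, and for 24 ED mouse 3 was the lowest, against 20.2% of all genes. Relative to each gene's mean over the libraries, the median log2 level of the 46 genes was 0.075, 0.020 and -0.13 in ED mice 1 to 3 and -0.039, 0.17 and -0.087 in WT mice 1 to 3. All 31 core and 19S subunits lay above their mean in WT mouse 2 and none did in ED mouse 3. Of the 5 activator genes, 2 were highest in WT mouse 2 and 0 were lowest in ED mouse 3. In the median gene WT mouse 2 exceeded ED mouse 3 1.22-fold, and the catalytic subunits did so 1.38-fold. Without Psmc3ip, 14 of 45 genes were higher in ED and 31 lower, 34 were highest in WT mouse 2, and 24 were lowest in ED mouse 3.

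**Figure D2:**
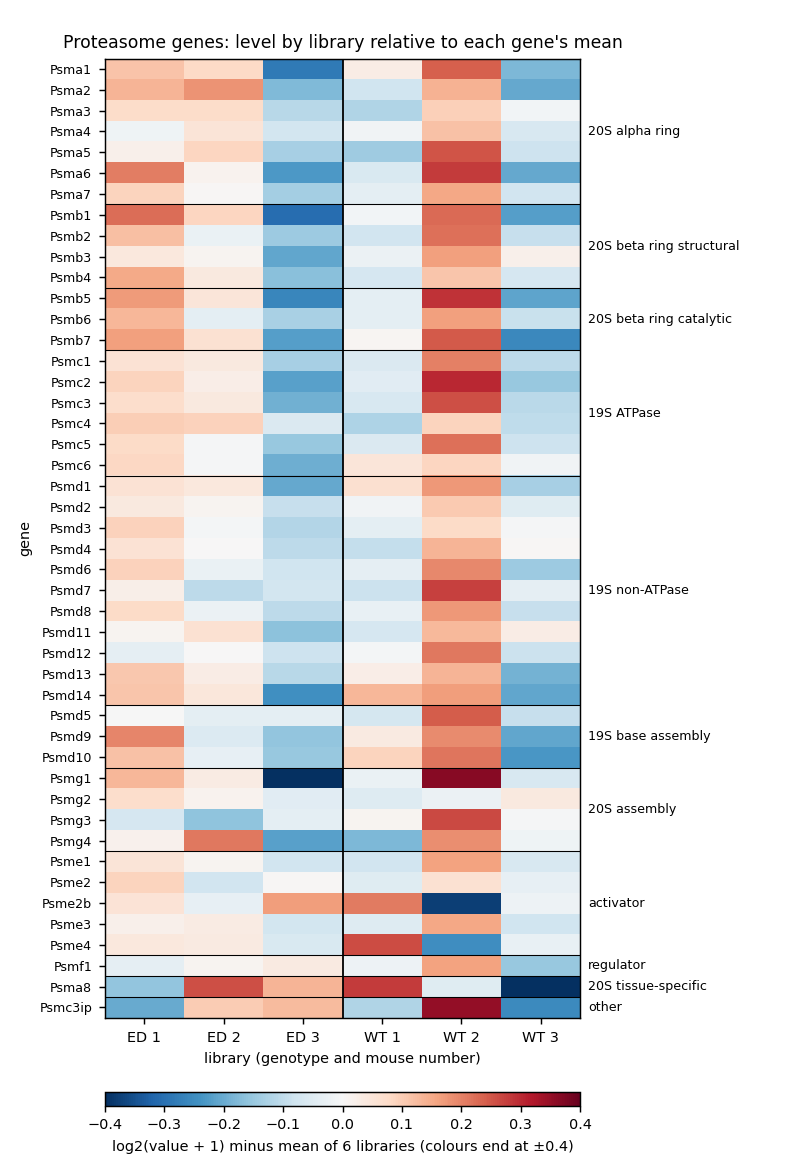
Level of each of the 46 genes (rows, grouped by role) in each library (columns, ED left of WT) as log2(value + 1) minus the mean of that gene over 6 libraries, red for above and blue for below. The column of WT mouse 2 is red for 42 genes and that of ED mouse 3 is blue for 41. Psme4, Psme2b, Psma8 and Psmg2 are blue in WT mouse 2.

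The highest and the lowest library belonged to different genotypes, and the sign of the small difference between genotypes changed when either was left out. With all libraries 31 of 46 genes were lower in ED. Without WT mouse 2, 39 were higher and the median log2 fold change was 0.053, and without ED mouse 3, 38 were higher with a median of 0.029. Leaving out any other mouse kept 35 to 40 genes lower, with medians between -0.084 and -0.037. In each of these 6 fits, 0 of the 46 genes reached an unadjusted p of 0.05 or an adjusted p of 0.05 in limma.

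Transcript length moved with the same order of libraries outside the proteasome. Most proteasome transcripts are short, and 34 of the 46 principal transcripts, the main protein-coding form of a gene in the annotation, were under 2 kb. Set beside them were 1591 other genes of that length with a mean value of 500 or more. No such minimum was set for the proteasome genes, whose means went down to 55.7 for Psmc3ip. Their median log2 level relative to the gene mean was -0.090 in ED mouse 3 and 0.12 in WT mouse 2. For the 34 genes of the set, Psmc3ip included, it was -0.13 and 0.20. WT mouse 2 was highest for 54.3% of the 1591 genes and ED mouse 3 lowest for 41.5%. Among the 34 genes these shares were 79.4% and 55.9%. Among 4021 others between 2 and 5 kb the medians were -0.0021 in ED mouse 3 and 0.029 in WT mouse 2, whereas the 11 proteasome genes of that length stood at -0.12 and 0.14. Psme4 alone exceeded 5 kb, and the 1569 other genes of that length were lowest in WT mouse 2, with a median of -0.11, and highest in WT mouse 1, with 0.11. Cytosolic ribosomal protein genes, 76 by name, had medians of -0.30 in ED mouse 3 and 0.23 in WT mouse 2. Lengths were also taken over every annotated exon, with medians again given for ED mouse 3 and WT mouse 2. On that length the 635 genes under 2 kb with a mean value of 500 or more had -0.14 and 0.17. The 3604 genes of 5 kb or more at that minimum had 0.031 and -0.058. The 7 proteasome genes among them stood at -0.16 and 0.17, unlike that class. The part of transcript length in the order of the libraries was not tested.

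**Figure D3:**
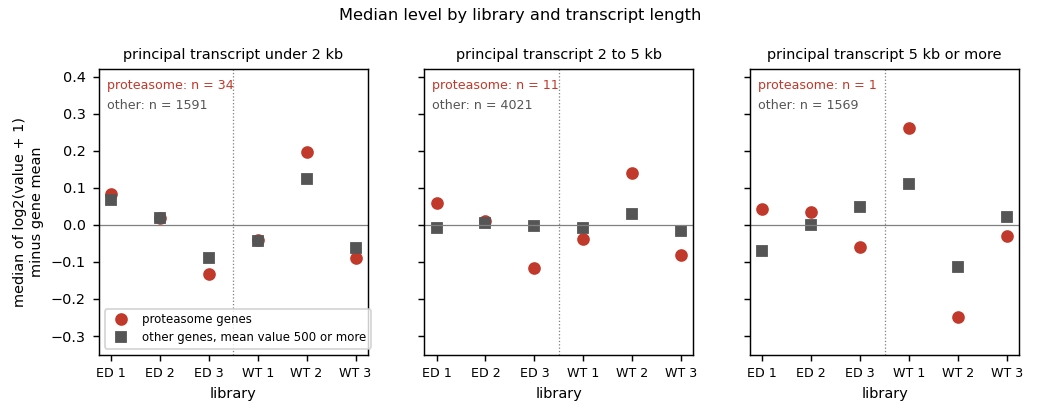
Median of log2(value + 1) minus the gene mean (vertical axis) in each library, ED left of WT, in 3 classes of principal transcript length. Red marks proteasome genes of any mean value, and grey marks other genes with a mean value of 500 or more. Short genes of both kinds are high in WT mouse 2 and low in ED mouse 3, genes of 5 kb or more are low in WT mouse 2, and between 2 and 5 kb the proteasome genes spread more than the others.

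The subunits of one complex are present in equal numbers in it, so their transcript levels were set side by side per kb of exon length. On that scale of value per kb, Psme1 was the highest of the 46 at a mean of 1515 over the 6 libraries, followed by the ATPase gene Psmc5 at 1400 and Psma6 at 1397. The lowest were Psmc3ip at 30.6 and Psma8 at 37.1, and between the ends of this order the level differed 49.5-fold. The 31 core and 19S subunits kept within a narrower span of 260 for Psmd11 to 1400 for Psmc5, or 5.38-fold. The 19S base chaperones ran from 82.5 for Psmd9 to 354 for Psmd10 and the Psmg genes from 93.1 for Psmg3 to 265 for Psmg4, so both groups overlapped the lower end of the subunits. Of 45 pairs of neighbours in the order, only Psme4 over Psmf1 and Psmd9 over Psma8 had ranges over the 6 libraries that did not overlap. Neighbours are the closest pairs by construction, and ranges ignore that all genes were measured in the same libraries. Psme1, for one, lay above Psmc5 in each of the 6 libraries although their ranges overlapped. The overlap of ranges therefore does not show that neighbours were equal.

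**Figure D4:**
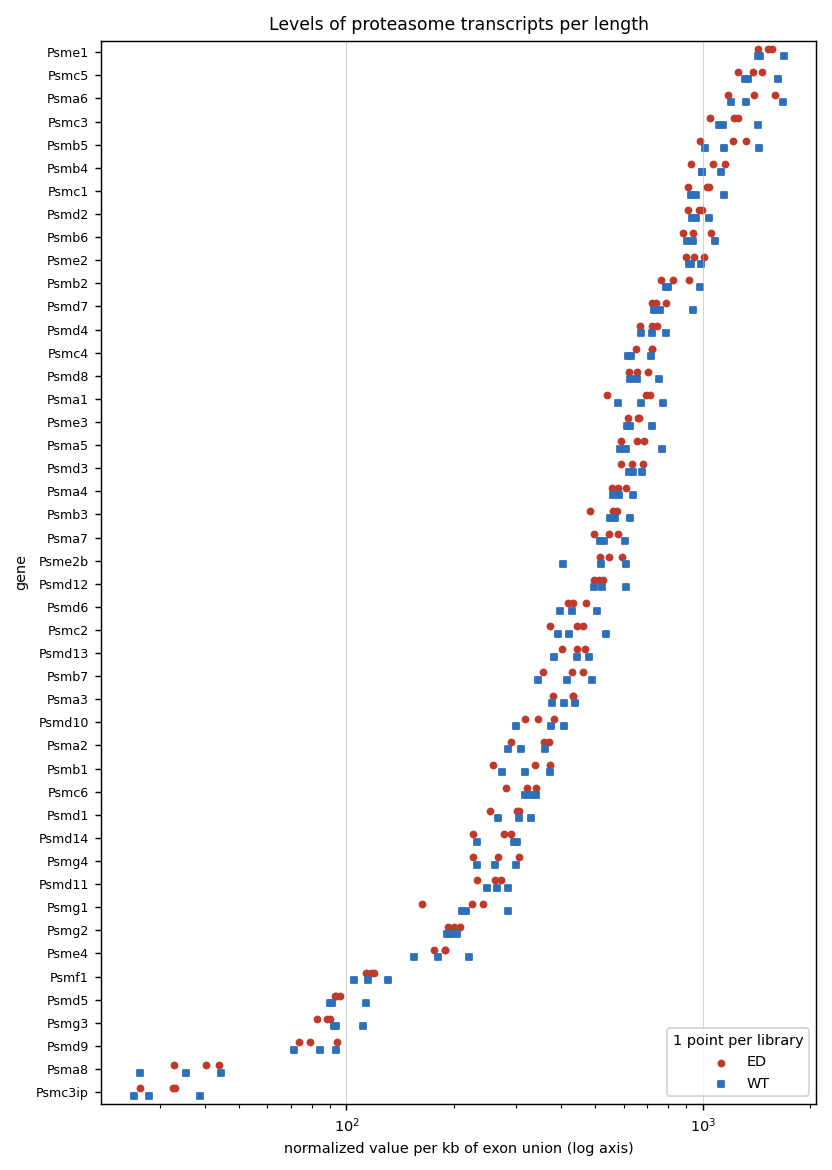
Normalized value per kb of exon length (log axis) of each of the 46 genes, 1 point per library, ED circles above WT squares, ordered by the mean. Psme1 lies at the top near 1515, most subunits between 260 and 1400, and Psma8 and Psmc3ip far below all others.

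These levels depend on the length used, since exon length counts every annotated exon, retained introns included. Per kb of the principal transcript, the median over the 46 genes was 868 in place of 530. Psme1 stayed first, at 3010, and was then followed by Psmb6 at 2268 and Psmc3 at 1916, with Psma8 at 54.7 and Psmc3ip at 43.1 still last. The core and 19S subunits then ran from 415 for Psma2 to 2268 for Psmb6, or 5.46-fold. On this length the 19S base chaperones and the Psmg genes no longer overlapped the subunits. Their highest means were 364 for Psmd10 and 326 for Psmg2.

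The immunoproteasome subunits, which compete with the catalytic subunits for a place in the core, were close to them in level per kb. Psmb8, Psmb9 and Psmb10 together had 0.889, 0.902 and 1.05 times the value per kb of exon length of Psmb5, Psmb6 and Psmb7 in ED mice and 0.879, 0.905 and 0.988 times in WT mice, with overlap. Per kb of the principal transcript, a length added after seeing the data, the ratios were 0.887, 0.892 and 1.02 in ED mice and 0.861, 0.883 and 0.981 in WT mice. The log2 fold changes of Psmb8, Psmb9 and Psmb10 were 0.036, 0.059 and -0.015.

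Proteasome promoters in mammals lack a common layout but are known to hold elements for a few shared factors. RefSeq promoter windows on GRCm38.p6 were at hand for 38 of the 46 genes, in 41 windows. In each, the 250 bases before the start used by that source were searched on both strands. The core of the antioxidant response element that the Nfe2l1 product binds, TGACNNNGC, was in 5 windows (12.2%), those of Psmb5, Psmb6, Psmc6, Psmd9 and Psmd12, beside 11.7% of the windows of all genes in the table and 10.2% of all windows. Its form TGACTCAGC was in 0 windows of the set and 0.309% of those of the table's genes. The core bound by ETS family factors, CCGGAAG, was in 14 windows (34.1%), beside 12.2% for genes of the table and 6.91% of all windows. Its extension GGAAGTGA, which overlaps it, was in 1 (2.44%), beside 3.41% for genes of the table.

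CCAAT was in 13 windows (31.7%), beside 34.7% for genes of the table, and GGGCGG was in 22 (53.7%), beside 54.97%. TATAAA was in 3 (7.32%), beside 6.58%, and a short interferon element, GAAA and GAAA with any 2 bases between them, in 3 (7.32%), beside 2.69%. These counts describe letters only. The windows below are those of 2 catalytic subunits with the first motif, of Psmd12, which holds that motif and the ETS core, of the ubiquitin receptor Psmd4, of Psme4, which departed from the order of the libraries, and of Psmg3, whose genotypes were separated. Capitals mark TGACNNNGC and CCGGAAG on either strand, and each sequence reads 5′ to 3′ on the strand of its gene.
Psmb5: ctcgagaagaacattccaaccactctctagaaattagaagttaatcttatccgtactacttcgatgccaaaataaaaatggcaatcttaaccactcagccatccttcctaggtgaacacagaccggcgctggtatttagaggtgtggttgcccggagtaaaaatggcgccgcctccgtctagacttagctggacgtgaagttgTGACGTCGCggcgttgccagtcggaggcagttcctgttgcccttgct
Psmb6: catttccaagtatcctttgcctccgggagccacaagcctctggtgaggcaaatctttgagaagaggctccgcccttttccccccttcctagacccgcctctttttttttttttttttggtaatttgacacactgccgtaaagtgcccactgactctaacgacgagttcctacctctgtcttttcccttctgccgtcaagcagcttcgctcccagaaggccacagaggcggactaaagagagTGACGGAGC
Psmd12: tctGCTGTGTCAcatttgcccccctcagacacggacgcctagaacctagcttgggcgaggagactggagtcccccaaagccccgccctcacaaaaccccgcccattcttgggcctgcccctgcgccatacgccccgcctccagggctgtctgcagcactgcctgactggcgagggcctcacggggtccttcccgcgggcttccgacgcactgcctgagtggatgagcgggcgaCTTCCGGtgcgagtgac
Psmd4: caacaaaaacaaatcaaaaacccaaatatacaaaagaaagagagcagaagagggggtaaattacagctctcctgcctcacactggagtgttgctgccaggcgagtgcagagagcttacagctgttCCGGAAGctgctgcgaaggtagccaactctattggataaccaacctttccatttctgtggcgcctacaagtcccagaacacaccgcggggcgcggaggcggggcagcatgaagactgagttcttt
Psme4: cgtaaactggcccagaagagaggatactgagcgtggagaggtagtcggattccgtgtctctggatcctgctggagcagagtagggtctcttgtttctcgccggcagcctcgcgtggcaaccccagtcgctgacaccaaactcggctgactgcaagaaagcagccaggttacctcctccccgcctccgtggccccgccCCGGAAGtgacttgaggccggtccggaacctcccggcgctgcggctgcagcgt
Psmg3: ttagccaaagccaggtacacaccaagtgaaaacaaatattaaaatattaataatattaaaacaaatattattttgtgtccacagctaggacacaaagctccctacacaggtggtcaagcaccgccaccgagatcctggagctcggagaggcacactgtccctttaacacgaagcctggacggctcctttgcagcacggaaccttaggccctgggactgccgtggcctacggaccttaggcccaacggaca

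On GRCm38 these windows are chr14:54617996-54618245 (- strand) for Psmb5, chr11:70525107-70525356 (+ strand) for Psmb6 and chr11:107479278-107479527 (+ strand) for Psmd12. They are chr3:95042615-95042864 (- strand) for Psmd4, chr11:30771525-30771774 (+ strand) for Psme4 and chr5:139826895-139827144 (- strand) for Psmg3. The windows of Psmb5, Psmd12 and Psme4 run into the genes as GENCODE M21 places them. There Psmd12 starts at 107479484, Psme4 starts at 30771726, and Psmb5, on the - strand, ends at 54618022. Psme4 holds the ETS core as Psmd12 and Psmd4 do, and the Psmg3 window holds neither motif.

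Genes that work beside the proteasome did not pass either. Of 29 measured genes from a list of associated factors, ubiquitin genes, shuttles, the unfoldase Vcp, the immunoproteasome and transcriptional regulators, 0 passed in limma and 0 were at an unadjusted p under 0.05 (smallest 0.186, for the shuttle gene Ubqln1). There were 7 higher and 22 lower in ED (median -0.039 on the log2 scale), beside 51.4% lower over all genes. The genotypes overlapped for all 29, whereas 2.32% of all genes lay wholly above and 3.42% wholly below in ED. Nfe2l1 itself had 4865, 4700 and 4514 in ED and 4890, 4995 and 4417 in WT mice (log2 fold change -0.021, SE 0.080). Nfe2l2, whose product binds the same element, had a log2 fold change of -0.060 (SE 0.087).

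The order of the libraries extended to part of this list. WT mouse 2 was highest for 19 of the 29 genes, against 26.2% of all genes. Among them was Pomp, the maturation factor of the core, with 2318, 2248 and 1768 in ED and 2164, 2647 and 2004 in WT mice. Adrm1, a ubiquitin receptor of the 19S particle that the naming rule does not catch, had 2148, 2145 and 1951 in ED and 2016, 2340 and 2084 in WT mice. Ddi2, which encodes the protease that activates the Nfe2l1 product, ran the other way with 3094, 2987 and 3455 in ED and 3463, 2408 and 3091 in WT mice. Its lowest library was WT mouse 2, as for Psme4, the shuttle gene Ubqln4 and AI314180, the gene of a proteasome scaffold (2080, 2275 and 2352 in ED and 2462, 1940 and 2504 in WT mice).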

How the data were processed

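Polyadenylated RNA of isolated microglia was sequenced by the authors with paired reads, 1 library per mouse, 3 ED and 3 WT, and titles gave genotype and mouse number. Per the submitters' processing notes, reads were trimmed (Trimmomatic 0.36) and the tools STAR 2.5.2b, DESeq2 and featureCounts (Subread 1.5.2) and the build GRCm38 were used. The study's methods name a human build and partly other tools for its RNA-seq. Strandedness was not given in the sources used, so overlapping genes may share reads. The deposited values are a normalized signal, and their steps look like each gene's reads over the size factor of that library. Whole reads could not be recovered safely in the ED libraries, so planned count models (edgeR, DESeq2) were not run. The deposited log2 fold changes and p-values of the authors' own comparison were not used.

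ED was compared with WT on log2(value + 1) over all 15954 genes with limma 3.58.1 in R 4.3.3 (genotype only, mean-variance trend, Benjamini-Hochberg over all genes), a procedure tested on simulated data. The p-values measure the spread between 3 mice per genotype, which limits precision. Coordinates and lengths came from GENCODE M21 on GRCm38 by gene identifier, matched for all 46 genes, and promoter sequences from RefSeq. Alternatives were TMM and upper-quartile scaling, a pseudocount of 5, a mean value of at least 50, no trend, a block for mouse number, and leaving out each mouse. Principal transcript length, and library order under other scaling, were added after seeing the data.

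The genes, related list and marker list were chosen with earlier results of these data known. Values in every library were given for the catalytic subunits, genes at an unadjusted p under 0.05 or with separated genotypes, the 3 smallest p per direction, the most variable gene per role, and the highest and lowest per length. Others named with values (Psmg2, Psme4, Psmd2, Psmd4, Psme2, Nfe2l1, Pomp, Adrm1, Ddi2, AI314180) were chosen after their values were seen.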

Additional observations from a re-analysis of the deposited data

How the results depend on the processing

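No proteasome gene passed in limma under any alternative run, with 0 genes at an adjusted or an unadjusted p under 0.05 in each. The median log2 fold change of the 46 genes was -0.023 with TMM and -0.020 with upper-quartile scaling, -0.025 with the other settings on all libraries, and -0.084 to 0.053 with 1 mouse left out. These scalings moved the median of all genes by 0.0018 and 0.0051. Genes with all ED values above all WT values numbered 0 to 2, and wholly below 1 to 3, with 1 mouse left out, where fewer values are compared. WT mouse 2 was highest for 36 and 37 genes with TMM and upper-quartile scaling, against 35, and ED mouse 3 lowest for 24 and 23, against 24. The median level per kb was 868 with principal transcript length.

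Leaving out 1 mouse turned the sign of small log2 fold changes, all far from the threshold. The ranges were -0.14 to 0.11 for Psmb5, -0.097 to 0.051 for Psmb6, -0.13 to 0.13 for Psmb7, -0.11 to 0.16 for Psmb1, -0.11 to 0.13 for Psma6, -0.16 to 0.064 for Psmc2, -0.18 to 0.048 for Psmd14 and -0.12 to 0.079 for Psmd9. They were -0.054 to 0.066 for Psme1, -0.030 to 0.26 for Psme2b, -0.067 to 0.089 for Psmf1, -0.037 to 0.34 for Psma8 and -0.11 to 0.20 for Psmc3ip. Psmg3 (-0.23 to -0.093), Psmg1 (-0.29 to -0.0086) and Psmb3 (-0.15 to -0.027) stayed lower in ED, and Psma2 (0.016 to 0.21) and Psmc4 (0.051 to 0.16) stayed higher, with sizes that moved by over 1.5 times.

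Mouse numbers gave no clear pairing of the libraries, but these correlations cannot show whether same-numbered mice shared a batch. Same-numbered mice had correlations of their deviations over genes of -0.095, 0.046 and 0.27, and ED mouse 1 correlated best with WT mouse 2 (0.28). With mouse number as a replicate block the median log2 fold change was -0.025 and 0 of the 46 genes passed. The planned edgeR and DESeq2 fits were not run.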
